A study of Rattus with 27 samples.

Results

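The genes described here are a list of 34 rat genes that mark B cells or carry their signals, from the antigen receptor complex to the transcription factors of the lineage. A listed gene was taken where the probe table pairs its symbol with a probe of no other gene, and where several probes qualified the probe with the highest mean over all arrays would have been used. On that rule 27 of the 34 were measured, each by 1 probe, among 14506 genes in all. The other 7, Cd79a, Bank1, Fcrl1, Cd38, Tnfrsf13b, Tnfrsf13c and Pax5, were not analysed here.

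The samples came from 9 Sprague Dawley rats, each of which gave brain, spleen and blood, so that 27 Affymetrix arrays were hybridized. Spleens and brains were homogenized whole, and from the blood only the separated white cells went on to RNA extraction. Sham rats had anaesthesia and vessel separation alone, and all other rats had middle cerebral artery occlusion (MCAO), a model of ischaemic stroke, with tissues collected at 6 h. The sample titles name 3 groups of 3 rats, sham, model and vehicle, whereas the protocol names sham, vehicle control and a group given YJ (the Yiqi Jiedu formulae) at 25 mg/kg. The labels do not settle which MCAO group received YJ, and the groups are called model and vehicle as titled. Rats keep the numbers of their titles, which are 3, 4 and 5 for sham rats, 1, 2 and 3 for model rats, and 2, 4 and 5 for vehicle rats. No label gives the sex or age of the rats, or a batch.

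B cells recognise antigen with a membrane immunoglobulin that signals through the paired chains Cd79a and Cd79b. The kinases Blk, Syk and Btk, the adaptor Blnk and the phospholipase Plcg2 relay that signal, the complement receptor Cr2 lowers its threshold, and Cd22 and Cd72 dampen it. Ebf1 and Pou2af1 belong to the transcription factors that hold B cell identity, while Bach2 and Bcl6 are repressors that delay the passage to plasma cells. Spleen holds B cells in follicles and marginal zones, beside red cells and macrophages, and healthy brain holds few B cells. Several listed genes also work in other cells, among them Syk and Btk in myeloid cells, Ikzf3 and Ltb in T cells, and Cd24 in red cell precursors and neurons.

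Values are deposited log2 intensities, on which a step of 1 is a doubling, and array medians lay between 4.96 and 5.31. Tests came from limma, a linear model fitted to all 14506 genes, and a call means a Benjamini-Hochberg adjusted p under 0.05 over all of them. In a homogenate or mixed white cells, fewer cells of a type and less RNA per cell cannot be told apart. Each probe has its own response, so its level is compared only between arrays and never with another probe.

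B cell genes were far higher in spleen and in white blood cells than in brain. In sham rats 26 of the 27 were called higher in spleen than in brain, against 27.4% of all genes higher and 26.3% lower, and the median difference was 3.15. In white blood cells 26 were called higher than in brain and 1 lower, against 31.1% and 28.0% of all genes, with a median of 2.86. Ms4a1, the surface protein CD20, differed most: its sham brain arrays read 2.95, 3.17 and 3.23, its sham blood arrays 8.63, 8.21 and 7.80, and its sham spleen arrays 9.96, 9.47 and 9.76. For Cr2 the difference from brain was 6.01 ± 0.25 (SE) in spleen and 4.32 ± 0.25 in blood.

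For 23 of the genes all 9 brain arrays lay below all 18 arrays of the other tissues, a pattern that was not counted over all genes. The exceptions were Ralgps2, Cd24, Ebf1 and Bcl6. Cd24, a surface glycoprotein that many cell types carry, was 0.12 ± 0.33 higher in sham spleen than in sham brain (limma, adjusted p = 0.81) and fell by 1.49 from brain to blood (adjusted p = 0.000386). The sham brain mean of 18 members lay below the lowest array median of 4.96, which was likewise not counted over all genes. For the defining markers Ms4a1, Cd79b, Cd22 and Cr2 the arrays thus separated as the tissue labels say.

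**Figure D1:**
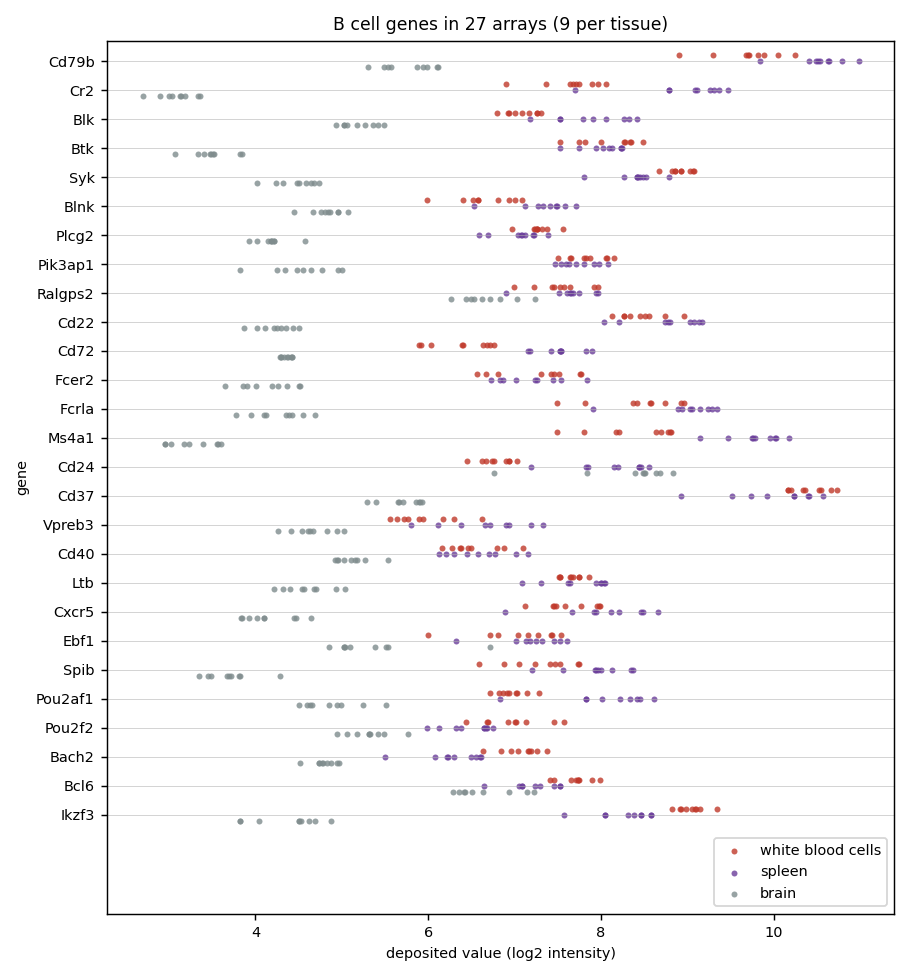
Deposited log2 intensity (horizontal axis) of the 27 measured B cell genes (rows) in every array, with 9 arrays of white blood cells, 9 of spleen and 9 of brain as separate colours. For 23 genes the 9 brain points lie left of all 18 others, and for Ralgps2, Cd24, Ebf1 and Bcl6 some brain points lie among or above those of the other tissues.

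Between spleen and white blood cells of sham rats, 11 B cell genes led by Cr2, Cd24 and Ms4a1 were higher in spleen, and the transcription factors Ikzf3, Pou2f2, Bcl6 and Bach2 were higher in white blood cells. Spleen was called higher for 11 members and lower for 4, against 19.3% and 19.7% of all genes. The median was 0.26 over the members and -0.12 over all genes. Of the receptor complex and coreceptor genes, both rose in spleen against blood. Cr2 read 9.09, 8.79 and 9.11 in sham spleen and 6.90, 7.36 and 7.67 in sham blood, with no overlap, a difference of 1.69 ± 0.25 (adjusted p = 7.68e-06). Cd79b, the measured signalling chain, was higher by 0.89 ± 0.26 (adjusted p = 0.00903).

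Among the kinases and adaptors, spleen was called higher for Blk (0.80 ± 0.21), a Src family kinase largely confined to B cells, and for the adaptor Blnk (0.91 ± 0.21). The remaining 5 of that group were not called, with differences of 0.04 for Btk, -0.43 for Syk, -0.10 for Plcg2, -0.31 for the adaptor Pik3ap1 and -0.14 for Ralgps2. Of the inhibitory and Fc receptors, Cd72 rose by 1.32 ± 0.19 and Fcrla, an Fc receptor-like protein kept inside the cell, by 0.91 ± 0.28. Cd22 was 0.50 higher in spleen (adjusted p = 0.0728) and the IgE receptor Fcer2 0.12, and neither was called.

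Of the surface genes, Ms4a1 rose by 1.52 ± 0.27, Cd24 by 1.61 ± 0.33 and Vpreb3, a gene of the precursor receptor family, by 1.04 ± 0.29. Cd37, a tetraspanin of mature lymphocytes, was not called at -0.26. Cd40, the receptor through which T cells help B cells, and the lymphotoxin chain Ltb were not called either (-0.18 and -0.07), nor was Cxcr5, the receptor that guides B cells into follicles (0.41).

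The transcription factors divided. Spib and the coactivator Pou2af1 were higher in spleen by 0.91 ± 0.26 and 1.09 ± 0.27, and Ebf1 was not called (0.26). Pou2f2, the octamer factor Oct2 with which Pou2af1 works, went the other way: it read 6.68, 6.67 and 6.32 in sham spleen and 7.57, 7.45 and 7.01 in sham blood, and was lower in spleen by -0.79 ± 0.14 (adjusted p = 0.000107). Ikzf3 differed by -0.82 ± 0.21, Bcl6 by -0.73 ± 0.21 and Bach2 by -0.67 ± 0.20, and all were called lower in spleen.

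Other cell types differed between these tissues as well, and their part in the values of the B cell genes was not tested. All 11 measured erythroid genes and 10 of 15 neutrophil genes were called higher in sham spleen, whereas 14 of 17 T cell genes and 11 of 12 genes of NK and cytotoxic cells were called lower. Centring each array on its median shifted the all-gene median from -0.12 to -0.28. It left 11 members higher and made 6 lower, while the counts over all genes moved from 2805 higher and 2858 lower to 2237 and 6094. The same 15 members were among those called under that scaling and under quantile normalization.

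The separate rats were also compared. Spleen exceeded blood in all 9 rats for 5 genes, Cd79b, Blk, Cd72, Ms4a1 and Cd24. Blood exceeded spleen in all 9 for another 5, Syk, Pou2f2, Bach2, Bcl6 and Ikzf3, of which Syk was not called in sham rats. The remaining 17 members were mixed, and no such count was made over all genes. For Cr2, Blnk, Fcrla, Vpreb3, Spib and Pou2af1 spleen was higher in 8 of 9 rats, and the exception each time was vehicle rat 4. Its spleen minus blood difference was -0.36 for Cr2 and -1.01 for Fcrla, against medians over the 9 rats of 1.44 and 0.62.

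**Figure D2:**
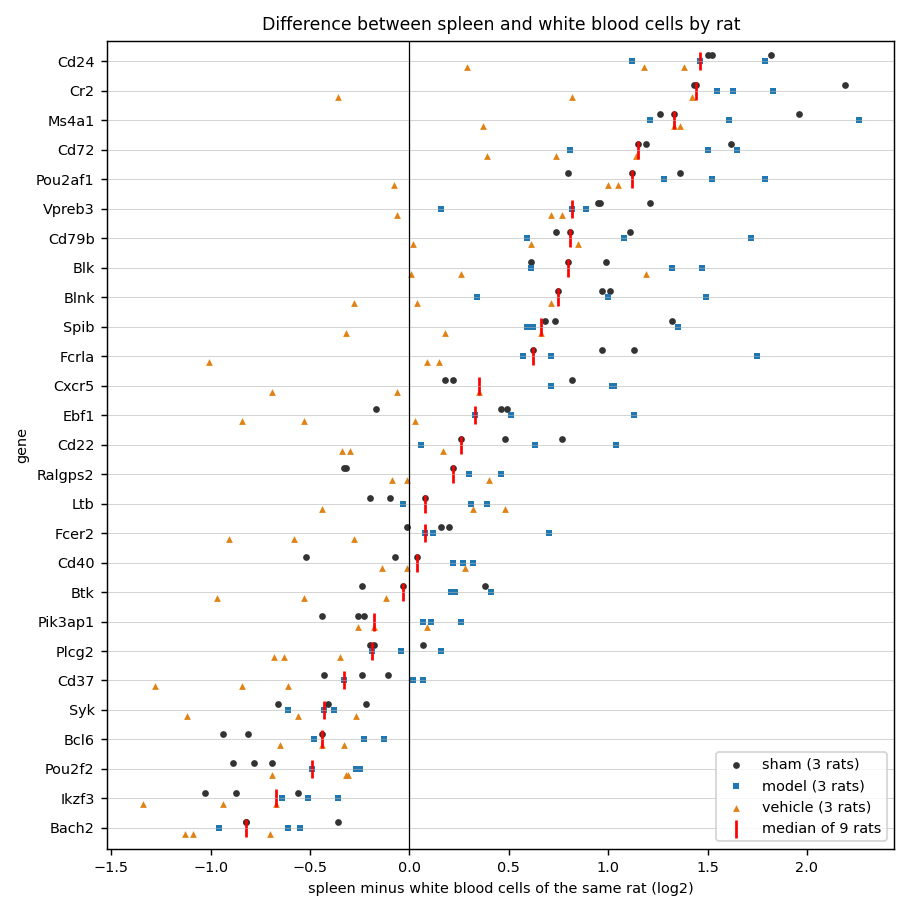
Spleen minus white blood cells of the same rat (horizontal axis, log2) for each of the 27 B cell genes, ordered by the median of 9 rats (red bar), with sham, model and vehicle rats as separate symbols. Cd24, Cr2, Ms4a1, Cd72 and Pou2af1 lie at the top with medians from 1.12 to 1.46, and Bach2, Ikzf3 and Pou2f2 at the bottom with medians from -0.82 to -0.49.

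In white blood cells after MCAO, no B cell gene was called in the model group, and in the vehicle group Pou2f2 fell. There Cr2, Fcrla, Spib, Blnk and Ms4a1 read higher than in sham without passing the test. Pou2f2 read 7.57, 7.45 and 7.01 in sham blood, 7.13, 7.0 and 6.92 in model blood and 6.44, 6.68 and 6.69 in vehicle blood. The 3 vehicle arrays lay below all arrays of both other groups. Against sham Pou2f2 fell by 0.74 ± 0.15 in the vehicle group (limma, adjusted p = 0.0182), the single member called in that comparison, where 2.01% of all genes were called. The call was lost without vehicle rat 2 (-0.66, adjusted p = 0.0866), vehicle rat 4 (-0.78, 0.0539), sham rat 3 (-0.63, 0.0682) or sham rat 4 (-0.69, 0.0775).

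Pou2f2 did not pass the test elsewhere, and its vehicle arrays were again low. It read 6.68, 6.67 and 6.32 in sham spleens, 6.64, 6.75 and 6.65 in model spleens and 6.12, 5.99 and 6.38 in vehicle spleens, so that vehicle lay below model and overlapped sham (vehicle minus model -0.52 ± 0.14, adjusted p = 0.197). In brain, where the probe was weak, sham arrays read 5.33, 5.42 and 5.32, model arrays 5.76, 5.49 and 5.32, and vehicle arrays 4.94, 5.17 and 5.06 (vehicle minus model -0.47 ± 0.13, adjusted p = 0.203). The 3 tissues come from the same rats and are not independent samples of the group.

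Cr2 was the next member in blood. Its sham arrays read 6.90, 7.36 and 7.67, its model arrays 7.64, 7.74 and 7.71 and its vehicle arrays 7.97, 8.06 and 7.89, the vehicle arrays lying above all others. The difference of 0.66 ± 0.16 between vehicle and sham missed the threshold (adjusted p = 0.0555) and passed it without sham rat 5 (0.84, adjusted p = 0.00977), the difference lying between 0.46 and 0.84 with any 1 array left out. Btk, the kinase lost in human X-linked agammaglobulinaemia, read 7.81, 8.0 and 7.53 in model blood and 8.28, 8.49 and 8.35 in vehicle blood, with sham between 7.75 and 8.33. Its vehicle minus model difference of 0.59 ± 0.16 was not called (adjusted p = 0.124) and passed at 0.0446 when sham rat 4 was left out, with a range of 0.47 to 0.70 over the left-out arrays.

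Fcrla, Spib, Blnk and Ms4a1 read above all sham arrays in every vehicle blood array without being called. With Cr2 these made 5 members, and 780 of all 14506 genes held the same pattern. Fcrla read 8.37, 8.41 and 7.81 in sham blood, 8.58, 8.57 and 7.49 in model blood and 8.96, 8.92 and 8.74 in vehicle blood, a vehicle minus sham difference of 0.68 ± 0.25 (adjusted p = 0.249). Spib, an Ets factor of B cells, differed by 0.53 ± 0.22 (adjusted p = 0.329), and Blnk by 0.46 ± 0.19 (adjusted p = 0.304). Ms4a1 read 8.63, 8.21 and 7.80 in sham blood, 8.17, 8.80 and 7.49 in model blood and 8.81, 8.77 and 8.69 in vehicle blood. Ralgps2 differed the other way, by -0.41 ± 0.18 (adjusted p = 0.347).

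Over the whole list in blood, 6 of 27 members (22.2%) had an unadjusted p under 0.05 between vehicle and sham, against 13.4% of all genes, and the median difference was 0.20 against -0.06 for all genes. Between vehicle and model 0 members were called where 1.56% of all genes were, 6 members had an unadjusted p under 0.05 (10.9% of all genes), and the median was 0.13. Between model and sham 0 members and 0.0% of all genes were called, 2 members had an unadjusted p under 0.05 (6.07% of all genes), and the median was 0.02. With 1 array left out these medians ran from 0.11 to 0.27 for vehicle minus sham, from 0.02 to 0.20 for vehicle minus model and from -0.11 to 0.13 for model minus sham. The 6 members between vehicle and model became 1 without vehicle rat 2 and 2 without model rat 3. The 2 members between model and sham became 1 without vehicle rat 4 or 5 and 0 without sham rat 3. The comparisons share arrays, vehicle minus sham and model minus sham having the same sham rats. The half-width of the 95% interval of a member's difference in blood was 0.25 to 0.58, with a median of 0.37. Model rat 3 was the lowest of the 9 blood arrays for 12 members, a place it held for 8.21% of all genes, and its list mean lay at -0.28 from the sham mean.

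**Figure D3:**
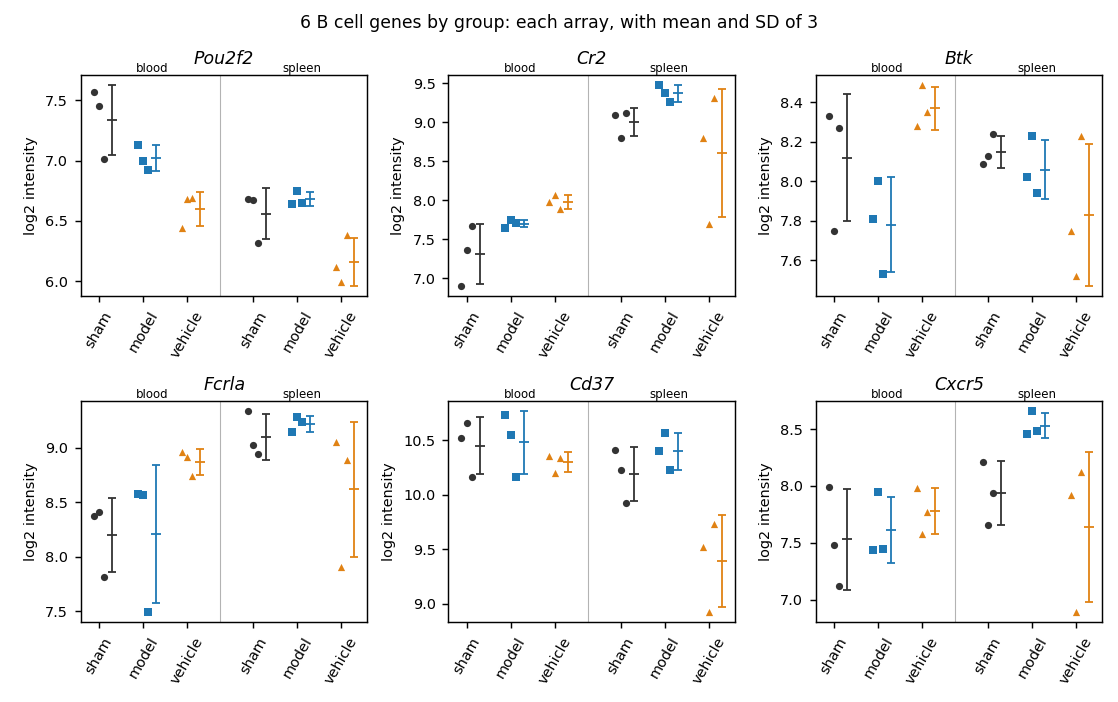
Log2 intensity of 6 B cell genes in white blood cells (left of each panel) and spleen (right), with each of the 3 arrays per group as a point and the mean with SD beside it. Among the blood arrays Pou2f2 is lowest, and Cr2 and Fcrla are highest, in the vehicle group. Among the spleen arrays 1 vehicle array, that of rat 4, lies far below the rest for Cr2, Fcrla and Cxcr5.

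In spleen no member was called in any comparison, and the vehicle group read lower than the model group for nearly the whole list. Vehicle minus model was below 0 for 26 of 27 members, Vpreb3 (0.24) being the exception, with a median of -0.40 against -0.02 over all genes. No member and 0.0% of all genes were called, and 12 members, all lower, had an unadjusted p under 0.05, which is 44.4% of the list against 12.9% of all genes. For 9 members the 3 vehicle arrays lay below the 3 model arrays, a pattern held by 11.2% of all genes. They were Cd79b, Fcer2, Fcrla, Cd24, Cd37, Cxcr5, Pou2af1, Pou2f2 and Ikzf3, which are receptor, surface and transcription factor genes and the homing gene Cxcr5. The 7 measured kinases, adaptors and effectors were not among them, nor were Cd40 and Ltb.

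Cd37 differed most. It read 10.41, 10.23 and 9.92 in sham spleen, 10.40, 10.57 and 10.23 in model spleen and 9.52, 8.92 and 9.73 in vehicle spleen, the vehicle arrays lying below all others. The vehicle minus model difference was -1.01 ± 0.20 (limma, adjusted p = 0.166). In blood the same gene read between 10.16 and 10.73 in all 9 arrays.

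Cxcr5 read 8.21, 7.66 and 7.94 in sham spleens, 8.46, 8.66 and 8.48 in model spleens and 7.92, 6.89 and 8.12 in vehicle spleens. The model arrays lay above all others, by 0.60 ± 0.26 over sham (adjusted p = 0.507) and with a vehicle minus model difference of -0.89 ± 0.26 (adjusted p = 0.203). Cd24 read 8.44, 8.44 and 8.46 in sham spleens, 8.20, 8.55 and 8.15 in model spleens and 7.83, 7.19 and 7.85 in vehicle spleens, and its vehicle minus sham difference of -0.82 ± 0.18 was not called (adjusted p = 0.206). Pou2af1 (-0.77 ± 0.29) and Cr2 (-0.77 ± 0.30) came next between vehicle and model.

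The spleen array of vehicle rat 4 carried much of this. It was the lowest of the 9 spleen arrays for 24 of the 27 members, a place it held for 22.1% of all genes, and its list mean lay at -0.73 from the sham mean. The other vehicle spleens lay at -0.15 (rat 2) and 0.14 (rat 5), and the blood array of rat 4 at 0.09. Without rat 4 the median vehicle minus model difference was -0.18, with 23 members lower and 5 at an unadjusted p under 0.05, and Cd37 kept a difference of -0.77 (adjusted p = 0.175). Without vehicle rat 5 instead, 7 members were called lower, Blk, Cd22, Cd37, Cr2, Cxcr5, Plcg2 and Pou2f2, and the median was -0.59. The 12 members at an unadjusted p under 0.05 became 20 in that fit and 7 without model rat 3. The fit without vehicle rat 5 called 226 genes lower and 91 higher among all 14506, where the fit with all arrays called 0.

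The T cell list was low on that array too. Other lists varied between the vehicle spleens, and the part of all these lists in the B cell values was not tested. The mean of 17 T cell genes lay at -0.81 in the spleen of vehicle rat 4, -0.16 in rat 2 and 0.26 in rat 5. Erythroid genes lay at 0.34, -0.17 and -1.60 in the same order, and platelet genes at 0.60, 0.04 and 0.24. A list of 17 exocrine pancreas genes, added after values had been seen, lay at 0.28 in rat 4, 0.84 in rat 2 and 0.28 in rat 5, against -0.07 to 0.04 in sham spleens.

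Against sham, the spleen comparisons were smaller. Model minus sham was above 0 for 23 of 27 members and for 9602 of all 14506 genes, with medians of 0.15 and 0.07. There 0 members were called against 0.0414% of all genes. The 3 members at an unadjusted p under 0.05 (9.50% of all genes) were Cxcr5, Fcer2 (0.45 ± 0.20) and Bcl6 (0.43 ± 0.18), all higher. Their number was 0 to 6 with any 1 array left out. With arrays centred on their median it was 0, and the median of the members was 0.10. In the 4 lists of other cells that follow 0 genes were called here, and their part in the B cell values was not tested. Only the plasma cell means lay apart from those of sham. Plasma cell means lay at 0.38 to 0.64 in model spleens (sham -0.16 to 0.08), T cell means at 0.24 to 0.34 (sham -0.42 to 0.41), neutrophil means at -0.79 to -0.41 (sham -0.53 to 0.49) and erythroid means at -1.39 to -0.27 (sham -0.41 to 0.23). Vehicle minus sham was below 0 for 23 members and for 42.3% of all genes, and the median of the members was -0.25. Again 0 were called (0.0483% of all genes). At an unadjusted p under 0.05 (9.35% of all genes) stood 3, Cd24, Cd37 (-0.80 ± 0.20) and Pou2f2. Without vehicle rat 4 that median was 0.00 and 14 members were lower. The half-width of the 95% interval in spleen was 0.31 to 0.71, with a median of 0.47.

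**Figure D4:**
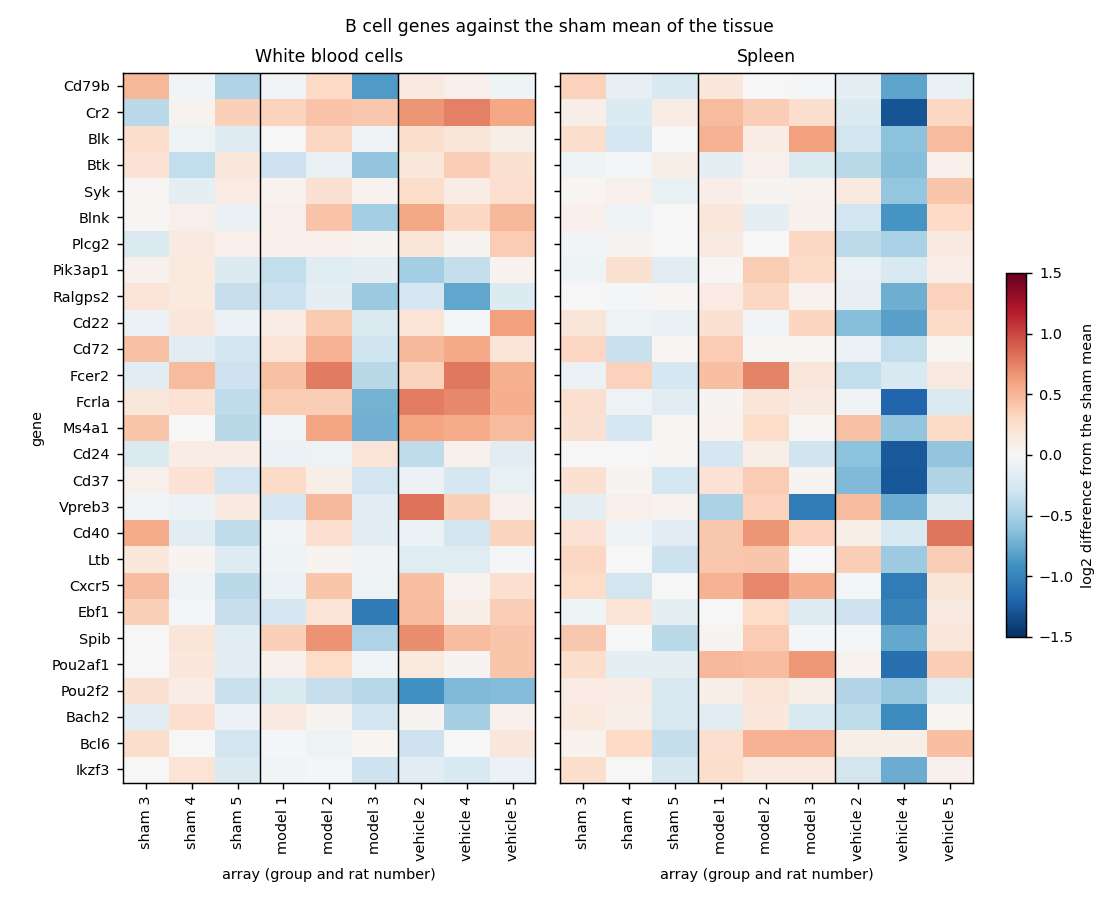
Colour gives each array's log2 difference from the sham mean of the same tissue, for 27 B cell genes (rows) in 9 white blood cell arrays (left) and 9 spleen arrays (right), ordered as sham, model and vehicle. The spleen column of vehicle rat 4 is blue in nearly every row (mean -0.73), and the Pou2f2 row is blue in all 3 vehicle columns of both tissues.

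Vehicle minus model was above 0 in blood for 17 members and below 0 in spleen for 26, and the difference between the tissues was itself tested. The blood minus spleen difference of vehicle minus model was above 0 for all 27 members, with a median of 0.64 against 0.01 over all genes. None of the 27 was called, nor were more than 0.0276% of all genes, and 13 members had an unadjusted p under 0.05 against 6.78% of all genes. Fcrla had the largest difference, 1.27 ± 0.39 (limma, adjusted p = 0.368): its blood arrays read 8.96, 8.92 and 8.74 in vehicle rats, above every model array, and its spleen arrays 9.05, 7.91 and 8.89, below every model array at 9.15, 9.28 and 9.24. Cr2 (1.04 ± 0.35), Cxcr5 (1.05 ± 0.36) and Ebf1 (1.10 ± 0.50) followed. Without vehicle rat 4 the median was 0.40, 4 members lay below 0 and 6 had an unadjusted p under 0.05. With other rats left out that number ran from 5 without model rat 3 (median 0.43) to 15 without model rat 2.

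For vehicle minus sham the blood minus spleen difference had a median of 0.50, with 0 members called (0.772% of all genes) and 8 at an unadjusted p under 0.05 (11.3% of all genes). Cr2, at 1.06 ± 0.35 (adjusted p = 0.229), was called in the fit without vehicle rat 5. Without vehicle rat 4 the median was 0.26 and 1 member had an unadjusted p under 0.05. For model minus sham the median was -0.18, with 0 members and 0.0% of all genes called and 1 member, Pou2f2 (-0.45 ± 0.20), at an unadjusted p under 0.05 (5.94% of all genes).

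The blood of the vehicle rats differed from that of the other groups in other cell types more than in B cell genes. All 11 measured erythroid genes were called higher in vehicle than in sham blood and 10 were higher than in model blood, with Alas2, the first enzyme of haem synthesis in red cells, at 11.35 against 8.68 and 9.78. The erythroid list mean lay between 1.91 and 2.79 above the sham mean in the vehicle arrays, 0.52 to 0.65 in the model arrays and -0.22 to 0.38 in the sham arrays. Of 15 neutrophil genes 7 were called higher than in sham and 4 higher than in model, among them Ngp (3.64 ± 0.23 over sham) and Lcn2 (3.45 ± 0.22), both granule proteins. The T cell list mean lay between -0.60 and 0.01 in vehicle blood, between -0.05 and 0.29 in model blood and between -0.27 and 0.38 in sham blood, which overlaps the vehicle range. The values of Pou2f2, Cr2 and Btk above stand beside these shifts, whose part in them was not tested.

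**Figure D5:**
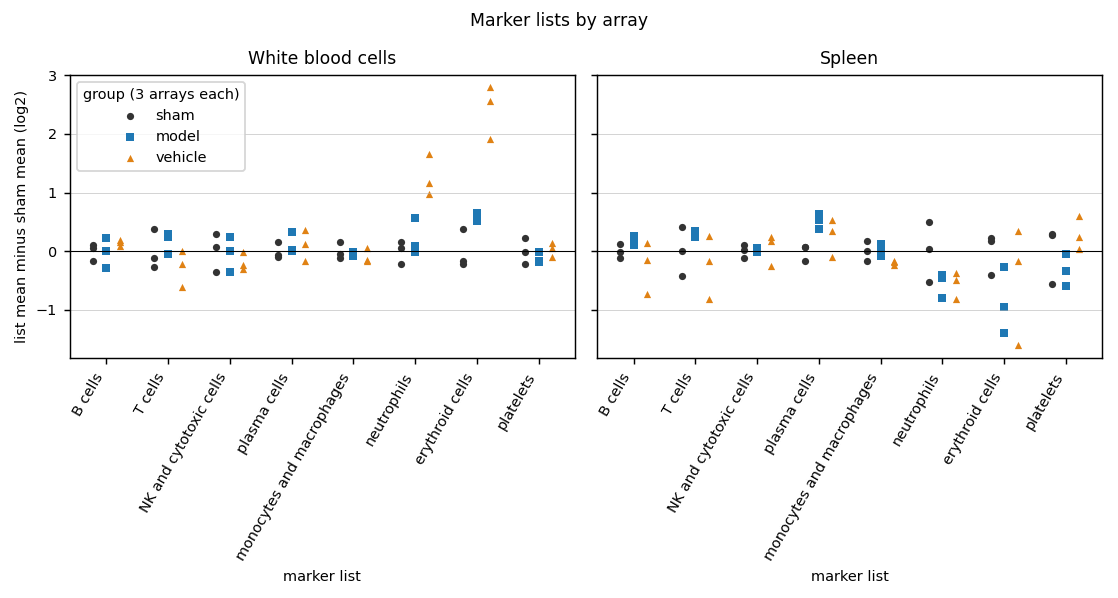
Mean of each marker list in each array minus the sham mean of the same tissue (vertical axis, log2), for white blood cells and spleen, with 3 arrays per group. In blood the vehicle arrays stand above all others for erythroid genes (1.91 to 2.79) and neutrophil genes (0.97 to 1.66), while the B cell list lies between -0.28 and 0.22 in all 9 arrays. In spleen the lowest B cell point (-0.73) and the lowest T cell point (-0.81) belong to vehicle rat 4.

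Beyond the members, 8 lists of genes that act with them were examined, with 111 measured entries, a gene on more than 1 list counting on each. In white blood cells 0 entries were called by limma between model and sham, and 13 (11.7%) had an unadjusted p under 0.05, against 6.07% of all genes. Between vehicle and sham 1 rose, the lymphocyte surface peptide Cd52 (2.94 ± 0.22), and 1 fell, Spn, the sialophorin CD43 (by 0.77 ± 0.17), a share near the 2.01% of all genes. Between vehicle and model Cd52 rose by 2.27 ± 0.22, and the inhibitory receptor Ceacam1 fell by 2.94 ± 0.60 (adjusted p = 0.0252).

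Cd40lg, the T cell ligand of Cd40, fell by 0.89 ± 0.16 in vehicle against model blood (adjusted p = 0.0118), from a mean of 8.32 to 7.43, with sham at 8.04. Tcf7, a T cell transcription factor, fell by 0.81 ± 0.17 in the same comparison (adjusted p = 0.0321), and it was the 1 of 17 T cell genes called. The receptor Cd40 itself had means of 6.54, 6.56 and 6.54 in sham, model and vehicle blood. Among 9 plasma cell genes Creld2, a chaperone of the secretory pathway, rose by 0.80 ± 0.19 in vehicle against sham blood (adjusted p = 0.0443). In spleen limma called 0 of the 111 entries in each of the 3 comparisons. At an unadjusted p under 0.05 stood 23 entries between model and sham (20.7%, against 9.50% of all genes) and 7 between vehicle and sham (6.31%, against 9.35%). Between vehicle and model there were 35, all lower in vehicle spleen (31.5%, against 12.9% of all genes in either direction). Of all 14506 genes, 1443 were lower at that threshold. Means of the vehicle spleens ran from -0.54 to 0.18 for the inhibitory list and from -0.54 to 0.21 for the homing list. For the germinal centre list they ran from -0.11 to -0.05. The entries were not counted with an array left out.

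Partner genes were called in both directions between sham spleen and sham blood, where 19.3% of all genes were called higher in spleen and 19.7% lower. Of 20 coreceptor and proximal signalling genes 3 were called higher in spleen and 11 lower, and of 17 lymphoid transcription factors 4 were higher and 8 lower. Of 7 germinal centre genes 3 were higher and 0 lower, and of 14 homing genes 5 were higher and 6 lower.

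In brain no member was called after MCAO. The call rates over all genes were 1.16% between model and sham, 0.0483% between vehicle and sham and 0.0551% between vehicle and model, and the numbers of members at an unadjusted p under 0.05 were 0, 1 and 1, the gene being Pou2f2 both times, while 14.4%, 9.33% and 14.3% of all genes passed that threshold. The largest model minus sham difference was 0.51 for Pik3ap1, an adaptor that myeloid cells also use (adjusted p = 0.354). On the lists of partner genes 5 entries were called higher in model than in sham brain, the cytokine receptor Il4r (1.22 ± 0.19), the costimulator Cd86 on 2 lists (1.17 ± 0.19), Ets1 (0.69 ± 0.13) and Nfkb1 (0.85 ± 0.17), and Cd14, a monocyte marker, rose by 2.26 ± 0.32. Between model and sham brain 28 entries (25.2%) had an unadjusted p under 0.05, 25 of them higher, against 14.4% of all genes. In the other 2 brain comparisons 0 entries were called. There 16 (14.4%) and 21 (18.9%) had an unadjusted p under 0.05, against 9.33% and 14.3% of all genes. The B cell markers Ms4a1 and Cr2 stayed between 2.70 and 3.60 in all 9 brain arrays.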

How the data were processed

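The authors deposited 1 table of log2 intensities, 27596 probe values for each of 27 arrays, which they had processed with RMA per the submitters' processing notes, in a version not given in the sources used here. The scale is not stated and was read as log2 from the range of 1.53 to 13.49, and the values were not normalized again. Groups follow the sample titles, 3 arrays each. Probes with 1 listed symbol (15310) were kept, and the probe with the highest mean per gene, which left 14506 genes. Each tissue was fitted over its 9 arrays with limma 3.58.1 in R 4.3.3 (a mean per group, 6 residual degrees of freedom). Comparisons between tissues used a fit of all 27 arrays with 18. The fits were tested on simulated data.

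The members and lists were chosen with earlier results of these data known, which makes no list or count here independent evidence. All members are accounted for. Values in every array are given for members called in a comparison within blood or spleen, and on each partner or marker list the called genes with the smallest p, at most 4, are named. Values in every array of Cr2, Btk, Fcrla, Cd37, Cxcr5, Cd24 and Ms4a1 were added after values had been seen.

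Replicate numbers were shared by groups but not by rats: deviations of same-numbered arrays of a tissue correlated with r from -0.474 to 0.377, 2 of 12 pairs above 0.1. The numbers were therefore not taken to pair groups. The 3 tissues of a rat, linked by its group and number, are paired: their deviations correlated with r from -0.058 to 0.517, 15 of 27 pairs above 0.1. The comparisons between tissues were therefore also fitted with the rat as a random block. Alternatives changed the scaling, filter, probe choice, variance model, array weights, arrays fitted and each array left out. No sequences or genome positions are given.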

Additional observations from a re-analysis of the deposited data

How the results depend on the processing

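Among the recomputed counts of called members, 215 equalled the reported count or stayed within 1.5 times of it, and 13 did not. Within blood and within spleen no direction of a called value turned under the alternatives run. Directions of single members were not checked in this way for the comparisons between tissues. In blood, vehicle minus sham had 1 member called. It had 2 with a filter on low values, with a variance trend and robust prior, or with array weights (Cr2 joining Pou2f2), and 0 to 2 with an array left out. Over all genes 291 were called, and in those settings 285 of 8706, 266 and 339. Vehicle minus model in blood had 1 called (Btk) with array weights, and 0 to 1 with an array left out. With array weights the calls over all genes there went from 226 to 555. Vehicle minus model in spleen had 1 called with all 27 arrays in the fit (Cd37, -1.01, limma, adjusted p = 0.0203) and 0 to 7 with an array left out. With all 27 arrays the calls over all genes there went from 0 to 107. The blood minus spleen difference of vehicle minus sham had 0 to 1. The causes of these moves were not tested. With the replicate number as a replicate block, Pou2f2 in blood was -0.75 (limma, adjusted p = 0.0199), and the block changed no call among the members. With the rat as a replicate block (estimated correlation 0.096), the tissue comparisons of sham rats kept 15, 26 and 27 members called and the blood minus spleen differences kept 0. Over all genes, calls in the latter went from 0 to 2 for model minus sham and from 4 to 8 for vehicle minus model. With 3 arrays a group, the number of arrays limits the precision of every value.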

Other observations

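A pair of members stood apart in the brain array of vehicle rat 2. Ebf1 read 6.71 there and between 4.85 and 5.53 in the other 8 brain arrays, while Cd24 read 6.76 there and between 7.84 and 8.83 in the others. Neither value was tested.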
